A study of Mus musculus with 8 samples.

Results

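Keratins are the cytoskeletal proteins of epithelial cells, and the 7 genes described here, Krt4, Krt7, Krt8, Krt18, Krt19, Krt20 and Krt23, were measured in small intestine organoids grown alone or in competition. They were chosen by name as the keratins of simple epithelium, together with Krt4, which was included because it ranks among the most abundant transcripts particular to the cancer cells. The 7 genes were taken from 13420 genes in the count table, and all 7 were among the 5264 genes that passed the filter on low counts. Krt20 reached the filter's level in 3 of the 8 libraries, A01, A02 and A06, so it passed only through WT libraries in which it was high, and its differences between groups are given as a description with no test read. The other 6 members reached that level in all 8 libraries.

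The WT organoids carried the mTmG reporter, which labels membranes with tdTomato, on a C57BL/6 background. The cancer organoids, of strain C57BL/6 (F6), carried Villin-CreERT2, Apc fl/fl and Tr53 fl/R172H among their alleles, and expressed Dendra2. The Villin promoter directs the recombinase to gut epithelium, so the cancer cells are epithelial cells taken soon after recombination of these alleles, rather than cells of a grown tumor. Cells were sorted by their fluorescence 3 days after the cultures were set up, from pure cultures of either kind or from cultures mixed at 2 parts WT to 1 part cancer. This gave 4 groups of 2 libraries each, pure WT (A01 and A05), mixed WT (A02 and A06), pure cancer (A03 and A07) and mixed cancer (A04 and A08). The labels name wells and do not say whether the 2 libraries of a group came from separate cultures, so the p-values measure the spread between these libraries, which may be technical. By the study's methods the WT lines came from mice of both sexes and the cancer line from male mice, so genotype and sex of the donor cannot be told apart. The labels give no age.

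The RNA was read by a sequencing protocol that places 1 tag near the 3′ end of each molecule, and the libraries held between 73109 reads (A02) and 4733121 reads (A04). Levels are given as normalized CPM, the reads of a gene scaled to the library total, with library sizes scaled by the trimmed mean method of edgeR. Because each molecule contributes a tag at its end, levels were not divided by transcript length. In these bulk samples, fewer cells of a type and less RNA per cell cannot be told apart. The 8 epithelial markers, among them Epcam and Cdh1, summed to between 719 and 2943 CPM in every library. Markers of mesenchyme (3 of 9 listed genes had a row) summed to at most 7.31 CPM, the 1 endothelial marker with a row to at most 0.587 CPM, and the 2 immune markers with a row to between 0 and 71.8 CPM, the highest being in a pure cancer library. Of the intestinal identity genes, Cdx1, a transcription factor of the gut, had 779 reads in pure WT and 0 in pure cancer. The 3′ reads of the engineered genes need not cover the recombined parts, so they could not check the genotypes.

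Keratins form intermediate filaments only as pairs of a type II and a type I chain. Krt8, Krt7 and Krt4 are type II keratins, and Krt18, Krt19, Krt20 and Krt23 are type I keratins. In the intestine, Krt8 with Krt18 and Krt19 makes the basic filament network of the epithelial cell, Krt20 belongs to the differentiated cells of the villus, and Krt7 is better known from ductal epithelia. Krt4 is a keratin of the non-cornified stratified epithelium of the mouth and esophagus.

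The genes lie in both keratin clusters of the mouse genome. In the GENCODE vM21 annotation of build GRCm38, the 4 members on chromosome 15 are Krt7 (chr15:101411043-101430313, plus strand, 9 exons), Krt4 (chr15:101918535-101924735, minus strand, 9 exons), Krt8 (chr15:101996698-102004482, minus strand, 9 exons) and Krt18 (chr15:102028180-102032027, plus strand, 7 exons). Krt18 is the single type I gene in the type II cluster, and 23697 bases separate it from Krt8. The 3 members on chromosome 11 are Krt20 (chr11:99428403-99438150, minus strand, 8 exons), Krt23 (chr11:99477974-99493137, minus strand, 8 exons) and Krt19 (chr11:100140810-100148665, minus strand, 6 exons). All 7 are protein-coding. In the last 500 bases of each longest transcript, where the tags fall, Krt18 shared 1.11% of its 50-base windows with the gene Gm5200, and the other 6 shared none with another gene.

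RefSeq promoter sequences of build GRCm38.p6 were matched for 5 of the 7 members, Krt7, Krt8, Krt18, Krt20 and Krt23. The 250 bases before the RefSeq start are shown for Krt8 and Krt18, partners in the filament whose ratio separated WT from cancer libraries, for Krt7, which was higher in cancer cells, and for Krt20, which was highest in mixed WT. They are at chr15:102004343-102004592 (minus strand, Krt8), chr15:102027966-102028215 (plus strand, Krt18), chr15:101412153-101412402 (plus strand, Krt7) and chr11:99438154-99438403 (minus strand, Krt20), each written 5′ to 3′ on the gene's strand. Capitals mark GGAATG, the TEAD motif, on either strand.
Krt8: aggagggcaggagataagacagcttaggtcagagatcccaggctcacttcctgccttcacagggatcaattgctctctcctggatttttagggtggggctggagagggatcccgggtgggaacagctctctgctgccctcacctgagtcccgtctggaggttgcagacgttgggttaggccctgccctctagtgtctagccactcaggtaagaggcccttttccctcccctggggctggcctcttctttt
Krt18: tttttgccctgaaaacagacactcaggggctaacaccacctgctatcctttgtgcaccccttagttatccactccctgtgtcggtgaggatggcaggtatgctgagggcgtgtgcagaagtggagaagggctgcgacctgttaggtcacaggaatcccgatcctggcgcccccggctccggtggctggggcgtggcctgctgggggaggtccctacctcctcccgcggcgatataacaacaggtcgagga
Krt7: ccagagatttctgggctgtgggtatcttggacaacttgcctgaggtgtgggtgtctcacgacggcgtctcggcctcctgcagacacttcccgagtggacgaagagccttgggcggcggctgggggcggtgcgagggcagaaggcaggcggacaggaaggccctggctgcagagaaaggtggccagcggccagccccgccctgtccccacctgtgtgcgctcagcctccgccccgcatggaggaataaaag
Krt20: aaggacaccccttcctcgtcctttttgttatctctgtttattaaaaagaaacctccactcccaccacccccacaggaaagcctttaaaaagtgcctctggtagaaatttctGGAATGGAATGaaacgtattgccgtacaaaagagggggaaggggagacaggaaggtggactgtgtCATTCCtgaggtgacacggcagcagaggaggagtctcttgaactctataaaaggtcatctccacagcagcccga
Both strands were searched for GGAATG and for TGANTCA, the AP-1 motif. The first was present in 12.6% of the 32851 RefSeq promoters of this length, and the second in 6.75%. The Krt20 window held 3 matches to GGAATG, 2 of them adjoining in 1 run with a shared G, and none to TGANTCA. Neither motif had a match in the windows of Krt7, Krt8, Krt18 and Krt23, which describes these letters in these windows and nothing more.

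In WT cells, Krt8 was the leading keratin. It gave 52.3% of the reads of the 7 keratins in pure WT and 53.7% in mixed WT, against 17.6% in pure cancer and 14.4% in mixed cancer (means of 2 libraries). In cancer cells the largest share belonged to Krt7, with 33.6% in pure and 31.9% in mixed cultures, against 9.27% and 12.7% in pure and mixed WT. Krt4 gave 1.05% and 0.664% of the keratin reads in pure and mixed WT and 18.6% and 22.2% in pure and mixed cancer. Krt18 gave 13.9% and 11.7% of the keratin reads in pure and mixed WT and 16.9% and 18.0% in pure and mixed cancer, and Krt19 gave 22.2% and 18.8% in WT and 11.9% and 12.3% in cancer in the same order. Together the 7 genes held between 0.459% of all reads (A05, 95% Wilson interval 0.449 to 0.468) and 1.32% (A06, 1.29 to 1.35), intervals that cover counting error only.

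**Figure D1:**
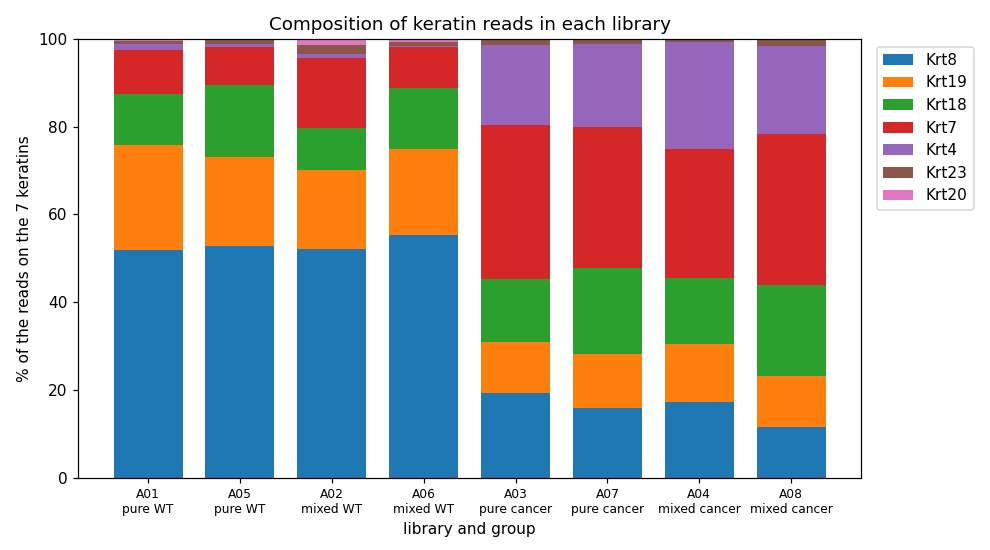
Stacked bars of the percent of reads on the 7 keratins that each keratin gave, for each of the 8 libraries in the 4 groups. Krt8 fills the largest part of the 4 WT bars, and Krt7 and Krt4 fill a larger part of the 4 cancer bars than of any WT bar.

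Krt8, the main type II keratin of simple epithelium, was measured at 2962 CPM (A01) and 2592 CPM (A05) in pure WT, at 3212 CPM (A02) and 8498 CPM (A06) in mixed WT, at 1753 CPM (A03) and 1778 CPM (A07) in pure cancer, and at 2013 CPM (A04) and 1292 CPM (A08) in mixed cancer. All 4 WT libraries lay above all 4 cancer libraries, and A06 stood far above the other WT libraries. The group means rose in the order mixed cancer (1652 ± 510 CPM, SD, n = 2), pure cancer (1765 ± 17.6 CPM), pure WT (2777 ± 262 CPM) and mixed WT (5855 ± 3738 CPM). The 2 cancer groups overlapped, and the 2 WT groups did not, but the spread of mixed WT exceeded its distance from pure WT.

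Krt7, a type II keratin of ductal epithelium, was measured at 571 CPM (A01) and 420 CPM (A05) in pure WT and at 983 CPM (A02) and 1441 CPM (A06) in mixed WT. In pure cancer it was at 3191 CPM (A03) and 3592 CPM (A07), and in mixed cancer at 3431 CPM (A04) and 3818 CPM (A08). The order was pure WT (495 ± 107 CPM, SD, n = 2), mixed WT (1212 ± 324 CPM), pure cancer (3391 ± 283 CPM) and mixed cancer (3624 ± 274 CPM), and only the 2 cancer groups overlapped.

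Krt4, whose values across WT and cancer cells are a description because its level there put it among the members, was measured at 80.5 CPM (A01) and 33.7 CPM (A05) in pure WT and at 65.5 CPM (A02) and 40.8 CPM (A06) in mixed WT. The 65.5 CPM of A02 rest on 5 reads. In pure cancer it was at 1653 CPM (A03) and 2122 CPM (A07), and in mixed cancer at 2836 CPM (A04) and 2225 CPM (A08). The WT groups overlapped, while both mixed cancer libraries lay above both pure cancer libraries.

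Krt18, the type I partner of Krt8, was measured at 661 CPM (A01) and 802 CPM (A05) in pure WT, at 590 CPM (A02) and 2123 CPM (A06) in mixed WT, at 1302 CPM (A03) and 2173 CPM (A07) in pure cancer, and at 1780 CPM (A04) and 2319 CPM (A08) in mixed cancer. The cancer libraries were all above the pure WT libraries, whereas mixed WT reached from below pure WT to the upper cancer values. The order of the means was pure WT (731 ± 99.9 CPM, SD, n = 2), mixed WT (1356 ± 1084 CPM), pure cancer (1737 ± 616 CPM) and mixed cancer (2049 ± 381 CPM), and apart from pure WT against the 2 cancer groups all pairs of groups overlapped.

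Krt19, a small type I keratin of simple epithelium that also pairs with Krt8, was measured at 1373 CPM (A01) and 1003 CPM (A05) in pure WT, at 1114 CPM (A02) and 3015 CPM (A06) in mixed WT, at 1060 CPM (A03) and 1365 CPM (A07) in pure cancer, and at 1527 CPM (A04) and 1281 CPM (A08) in mixed cancer. Apart from A06, all libraries lay between 1003 and 1527 CPM. The means were 1188 ± 262 CPM in pure WT, 1213 ± 215 CPM in pure cancer, 1404 ± 174 CPM in mixed cancer and 2065 ± 1344 CPM in mixed WT (SD, n = 2), and every pair of neighbors in this order overlapped.

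Krt20, the type I keratin of differentiated villus cells, was rare. It was measured at 24.7 CPM (A01, 27 reads) and 6.74 CPM (A05, 12 reads) in pure WT and at 91.8 CPM (A02, 7 reads) and 99.7 CPM (A06, 44 reads) in mixed WT. In pure cancer it had 3 reads in A03 (15.7 CPM) and 0 in A07, which allows up to 8.98 CPM, and in mixed cancer 30 reads in A04 (5.87 CPM) and 0 in A08, which allows up to 15.6 CPM. Both mixed WT libraries were above every other library. Pure WT overlapped pure cancer and lay just above mixed cancer, at counts too low to separate them beyond their spread.

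Krt23, a type I keratin of less well known function, was measured at 44.8 CPM (A01) and 56.2 CPM (A05) in pure WT, at 118 CPM (A02, 9 reads) and 140.5 CPM (A06) in mixed WT, at 121 CPM (A03) and 120 CPM (A07) in pure cancer, and at 79.4 CPM (A04) and 187 CPM (A08) in mixed cancer. The 2 pure WT libraries were the lowest of the 8, and the other 3 groups overlapped. The means were 50.5 ± 8.03 CPM in pure WT, 120.2 ± 0.701 CPM in pure cancer, 129 ± 15.9 CPM in mixed WT and 133 ± 75.9 CPM in mixed cancer (SD, n = 2).

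**Figure D2:**
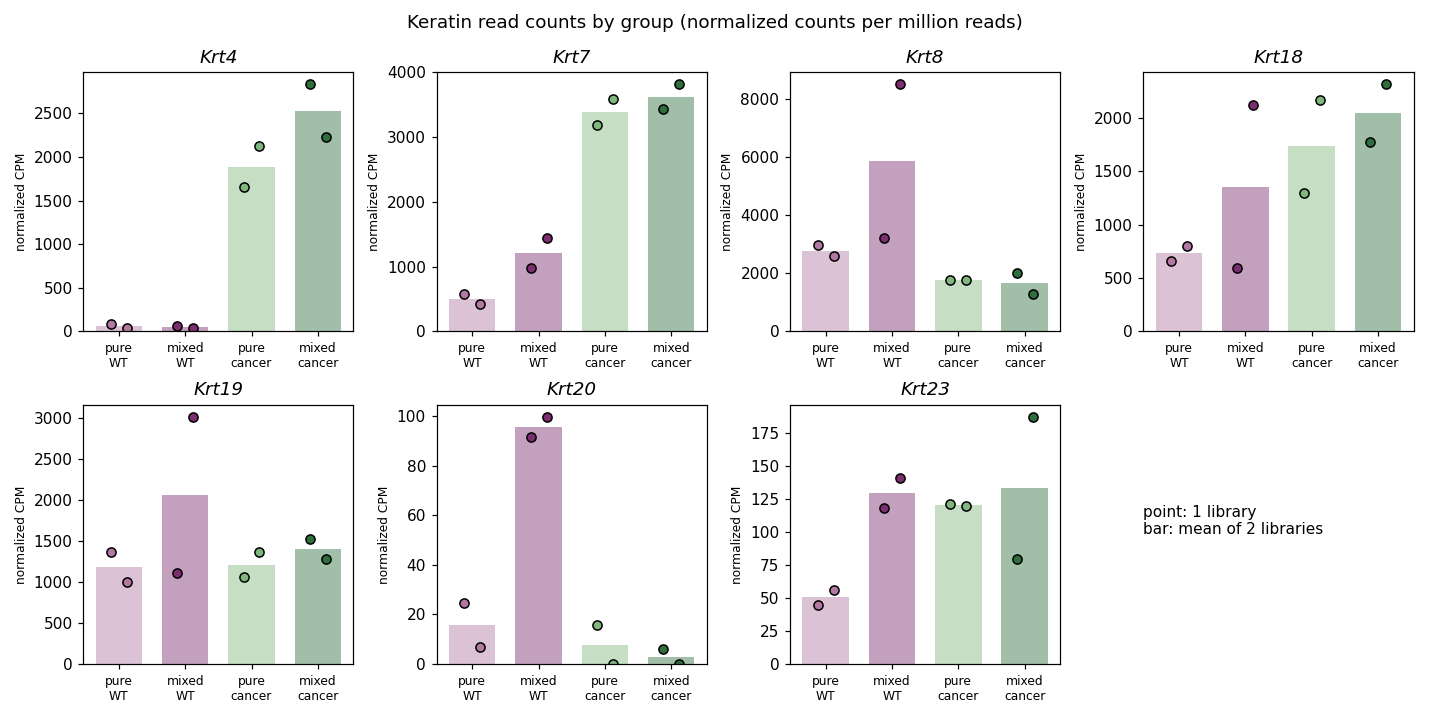
Normalized CPM of each keratin on a linear axis, 1 panel per gene, with a point for each library and a bar for the mean of the 2 libraries of each group. Krt4 and Krt7 are higher in all 4 cancer libraries than in any WT library, Krt8 is lower, and A06 is the highest library for Krt8 and Krt19.

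The ratio of 2 keratins within a library does not depend on the scaling between libraries. The Krt8 to Krt18 ratio of reads was 4.48 and 3.23 in pure WT (A01 and A05) and 5.44 and 4.00 in mixed WT (A02 and A06). It was 1.35 and 0.818 in pure cancer (A03 and A07) and 1.13 and 0.557 in mixed cancer (A04 and A08). The highest cancer ratio was thus below the lowest WT ratio. From the authors' estimated transcript counts, which correct for molecules that share a barcode, the ratio was between 2.00 and 5.17 in WT and between 0.460 and 1.05 in cancer libraries. The Krt7 to Krt8 ratio of reads was between 0.162 and 0.306 in the 4 WT libraries and between 1.70 and 2.96 in the 4 cancer libraries. From the transcript counts it was between 0.102 and 0.306 in WT and between 1.00 and 2.71 in cancer libraries, where A04 had reached the barcode limit for both genes of either ratio. Krt8 had also reached it in A06, which gave the WT extremes 5.17 and 0.102, so these values in A04 and A06 are not exact.

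The sum of the type II members over the sum of the type I members ranged less widely than the Krt8 to Krt18 ratio. This ratio was 1.72 and 1.63 in pure WT, 2.23 and 1.86 in mixed WT, 2.64 and 2.05 in pure cancer, and 2.44 and 1.94 in mixed cancer, in the library order given above. Pure WT was the lowest group, and the other 3 overlapped. Under the 4-base barcode at most 256 molecules of a gene can be told apart, and Krt8 reached 256 barcodes in 2 libraries, Krt7, Krt18 and Krt19 in 1 each. Barcode and transcript tables therefore level off for these genes, and reads are used for the levels and tests.

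**Figure D3:**
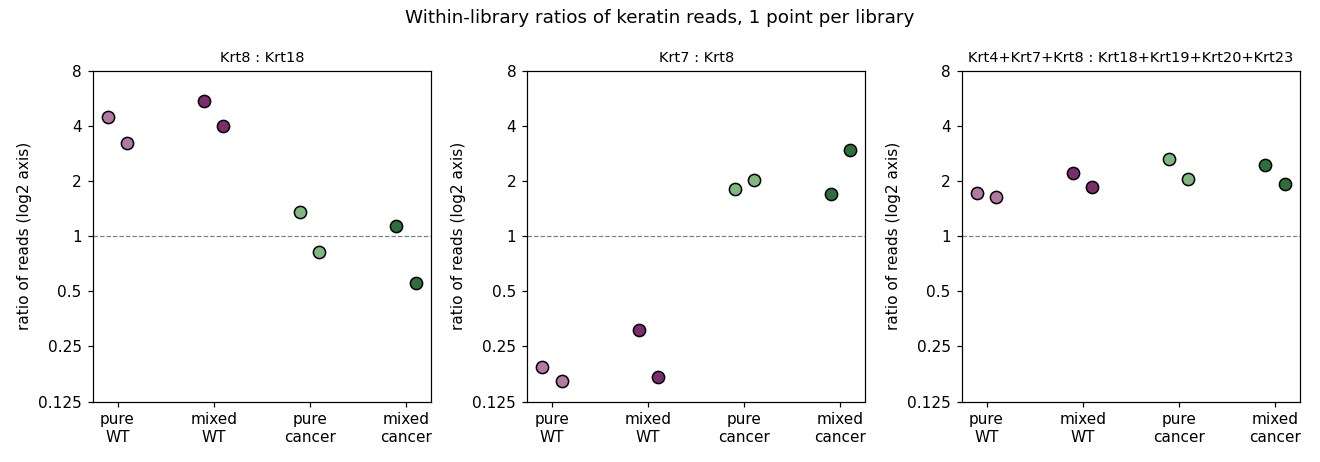
Ratios of read counts within each library on a log2 axis, for Krt8 to Krt18, Krt7 to Krt8 and the 3 type II to the 4 type I members, with 1 point per library. The WT and cancer libraries separate for the first and second ratio, with Krt8 to Krt18 at 3.23 or more in WT and 1.35 or less in cancer, and overlap for the third.

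Comparing pure cancer with pure WT cells asks how the keratins differ between the 2 kinds of cell without competition. Krt7 was 6.85-fold higher in pure cancer (log2 difference 2.78, SE 0.409, edgeR quasi-likelihood test, Benjamini-Hochberg adjusted p = 5.30e-05). Krt4 was 33.4-fold higher (log2 difference 5.06, SE 0.516), given without a test. Krt18 was 2.38-fold higher (log2 difference 1.25, SE 0.478, edgeR adjusted p = 0.111) and Krt23 2.37-fold higher (1.24, SE 0.568, edgeR adjusted p = 0.209), and neither passed 0.05. Krt8 was 1.57-fold lower (log2 difference -0.65, SE 0.427, edgeR adjusted p = 0.426), also short of the threshold. Krt19 differed by 0.03 on the log2 scale (SE 0.438), with a 95% interval from -0.83 to 0.89 that leaves room for change either way. Krt20 had 3 reads (1 barcode) against 39 (19 barcodes), a pooled CPM ratio of 0.421 with a counting interval over reads from 0.0832 to 1.32.

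Leaving out Krt4 and Krt20, 1 of the other 5 keratins passed adjusted p 0.05 in that comparison, Krt7, beside 9.95% of all genes, 5.11% higher and 4.84% lower. The libraries did not overlap for 4 of the 5, with Krt7, Krt18 and Krt23 all higher in cancer and Krt8 all lower, beside 23.2% of all genes all higher and 29.4% all lower. The median log2 difference of the 5 was 1.24, against -0.05 over all genes. Krt18 passed the threshold when A02, A03, A06 or A08 was left out (edgeR adjusted p = 0.0415, 0.0281, 0.0476 and 0.0496), with a log2 difference between 1.19 and 1.52 in these 4 fits. It was 0.74 without A07 (edgeR adjusted p = 0.453) and 1.07 without A01 (edgeR adjusted p = 0.404). Krt7 passed 0.05 with any 1 library left out. Cd68, a macrophage marker, had 23 reads in A07 and 0 in A03, against 2 reads in pure WT (log2 difference 5.52). It reached the filter's level only in cancer libraries, so this is a description with no test read. Krt7 was at 3592 CPM in A07 and 3191 CPM in A03, and a link between Cd68 and Krt7 was not tested.

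Comparing mixed cancer with mixed WT cells asks the same for cells sorted from mixed cultures. The labels do not say which libraries came from the same culture, so the libraries were not paired. Krt7 was 2.97-fold higher in mixed cancer (log2 difference 1.57, SE 0.395, edgeR adjusted p = 0.0143). Krt8 was 3.55-fold lower (log2 difference -1.83, SE 0.438, edgeR adjusted p = 0.00978). Krt20 had 30 reads (11 barcodes), all in A04, against 51 reads (16 barcodes), which is 17.4-fold lower on pooled CPM, with a counting interval of 10.9 to 28.3 over reads that is too narrow because several reads share a barcode. Krt4 was 52.8-fold higher (log2 difference 5.72, SE 0.578). Krt20 and Krt4 are both given without a test.

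The type I keratins Krt18, Krt19 and Krt23 differed by 0.56 (SE 0.475), -0.57 (SE 0.440) and -0.06 (SE 0.584) on the log2 scale, with edgeR adjusted p = 0.630, 0.590 and 0.983. Leaving out Krt4 and Krt20, 2 of the other 5 keratins passed, Krt7 higher and Krt8 lower, beside 6.42% of all genes (2.01% higher and 4.41% lower). Of the 5, these 2 were also the ones with libraries that did not overlap, beside 26.5% of all genes all higher and 18.4% all lower. The median log2 difference of the 5 was -0.06, against 0.12 over all genes. Each of these calls rested on 1 library. Without A02 the Krt7 difference was 1.32 (edgeR adjusted p = 0.127) and without A06 the Krt8 difference was -0.90 (edgeR adjusted p = 0.289).

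Comparing mixed with pure WT cells asks what the presence of cancer cells did to the keratins of WT cells. The fitted level was higher in mixed WT for 6 of the 7 keratins, by 1.30 for Krt7 (SE 0.393), 1.08 for Krt8 (SE 0.428), 0.92 for Krt18 (SE 0.476), 0.81 for Krt19 (SE 0.440), 2.65 for Krt20 (SE 0.920) and 1.38 for Krt23 (SE 0.580) on the log2 scale, and -0.24 for Krt4 (SE 0.548). With Krt20 set aside, none passed the edgeR test, with adjusted p = 0.148 for Krt7, 0.361 for Krt8, 0.557 for Krt18, 0.578 for Krt19, 0.407 for Krt23 and 0.940 for Krt4, beside 0.741% of all genes (0.646% higher and 0.095% lower). Leaving out Krt4 and Krt20, 3 of the other 5 had an unadjusted p under 0.05, Krt7, Krt8 and Krt23, and DESeq2 called 1, Krt7 (adjusted p = 0.0222). For the same 3 genes both mixed libraries lay above both pure libraries, beside 15% of all genes all higher and 28.8% all lower. The median of the 5 log2 differences was 1.08, against -0.10 over all genes, of which 44.8% were above 0.

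Krt20 had 51 reads from 16 barcodes in mixed WT, 2 of them in A02, against 39 reads from 19 barcodes in pure WT. The pooled CPM ratio was 7.25, and its counting interval over reads, 4.69 to 11.3, is too narrow because several reads share a barcode. The higher levels of Krt8, Krt18 and Krt19 lay largely in A06. Without A06 the log2 difference was 0.12 for Krt8, -0.40 for Krt18 and -0.18 for Krt19, while the median over all genes was then -0.74. In the same fit it was 0.90 for Krt7 and 1.13 for Krt23. The RNA of cancer cells in the mixed WT libraries was gauged with 4 genes that had 0 reads in pure WT (Gabrp, Irx5, Serpinb6b and Sult1a1). Their sum was 0 reads in A02 and 3 reads in A06, the latter 1.95% of their sum in pure cancer. In the shallow A02, 3 reads amount to 39.3 CPM, against a sum of 349 CPM in pure cancer, so the 0 there is a loose limit. Krt4 in mixed WT was 3.47% (A02) and 2.16% (A06) of its mean in pure cancer, and Krt7 was 29.0% and 42.5%. Pure WT cells, grown without cancer cells, already had means of 57.1 CPM for Krt4 and 495 CPM for Krt7. In pure cancer the means were 1888 CPM for Krt4 and 3391 CPM for Krt7. The part of cancer RNA in the mixed WT values was not tested.

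Comparing mixed with pure cancer cells asks what the presence of WT cells did to the keratins of cancer cells. The log2 differences ran from -0.34 for Krt20 to 0.42 for Krt4 (SE 0.432), with a median of 0.10 against 0.03 over all genes. With Krt20 set aside, none of the keratins passed the edgeR test, beside 0% of all genes. None of them had an unadjusted p under 0.05, and DESeq2 called 0. Krt4 alone had both mixed libraries above both pure libraries, beside 13.8% of all genes. The 95% interval of the difference was from -0.65 to 0.85 for Krt7 and from -0.93 to 0.74 for Krt8, so changes of moderate size in either direction could not be detected here.

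The change with mixing in WT cells minus that in cancer cells was 1.21 for Krt7 (SE 0.546, edgeR adjusted p = 0.654), 1.17 for Krt8 (SE 0.603, edgeR adjusted p = 0.717), 2.98 for Krt20 (SE 1.75, no test read) and 1.30 for Krt23 (SE 0.813, edgeR adjusted p = 0.785) on the log2 scale. With Krt20 set aside, none of the keratins passed, 1 (Krt7) had an unadjusted p under 0.05, and DESeq2 called 0, beside 0.076% of all genes called by edgeR. The keratins were therefore not shown to respond differently to mixing in the 2 kinds of cell. Each group entered 2 of the 4 pairwise comparisons, so these share libraries and are not independent of each other.

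**Figure D4:**
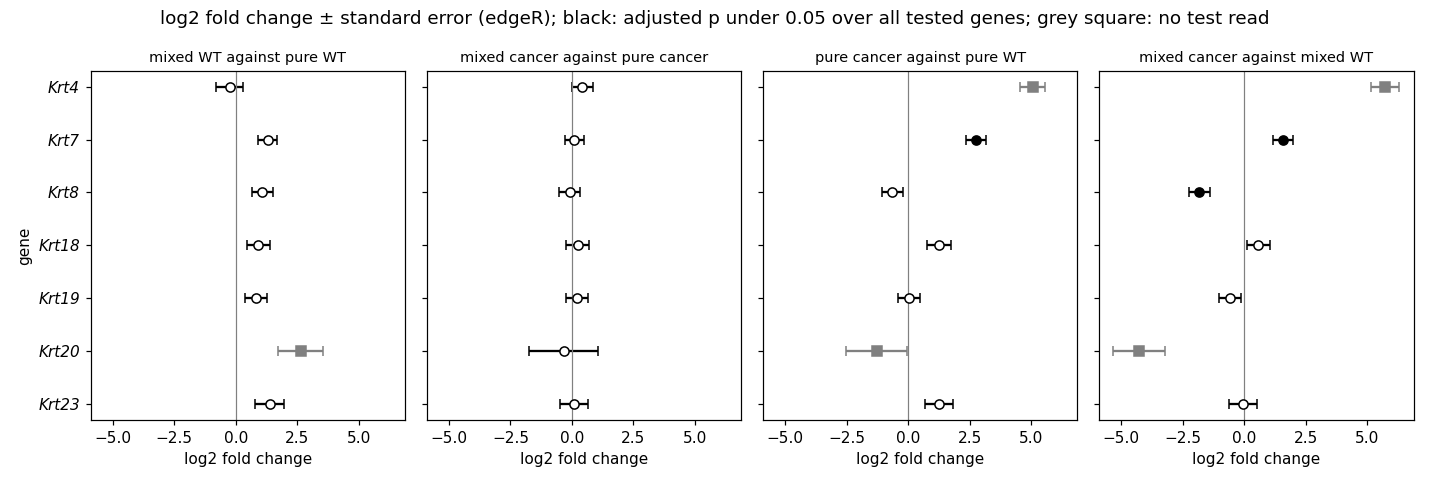
Fitted log2 differences with their SE (bars) for the 7 keratins in the 4 comparisons, with black points at adjusted p under 0.05 over all tested genes, open points otherwise and grey squares for Krt4 and Krt20 where no test is read. Krt7 is black in both comparisons of cancer with WT cells, Krt8 is black in the mixed cultures, and no point is black for mixed against pure cells of the same kind. Krt20 is drawn as an open point in mixed against pure cancer, where no test is read for it either.

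The other 13 keratin genes in the table were barely read, and 0 of them passed the filter. They had 23 reads in the WT libraries and 140 in the cancer libraries, of which 128 fell in A04, the deepest library. Krt14, the type I keratin of basal stratified cells, was named after its counts were seen. It had 39 reads in A04, 4 in A08, 3 in A07 and 0 in A03 and the 4 WT libraries, which is at least 8.92-fold higher in the cancer libraries against a floor of 3 reads over the WT libraries together.

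The proteins that anchor keratin filaments were followed as a list. Of 19 listed desmosomal, hemidesmosomal and other filament partners 13 were tested, and 0 passed in the 2 comparisons of mixed with pure cells and in pure cancer against pure WT. In mixed cancer against mixed WT 1 passed, Perp, a membrane protein of desmosomes, which was lower (log2 difference -2.52, SE 0.725, edgeR adjusted p = 0.0352). A count of 1 of 13 there is near the 6.42% of all genes. The median log2 difference of the 13 was 0.59 in mixed against pure WT (-0.10 over all genes), -0.02 in pure cancer against pure WT (-0.05 over all genes) and -0.88 in mixed cancer against mixed WT (0.12 over all genes). Of the 13, 3 reached the filter's level only in WT libraries and 0 only in cancer libraries. The filter thus favored lower values in cancer, and the medians of cancer against WT are a description. Of the other intermediate filament genes 3 were tested, and 1 passed, the nuclear lamin Lmnb2, with 3 reads in pure cancer against 170 in pure WT (edgeR adjusted p = 0.0294, beside 9.95% of all genes called). In mixed cancer against mixed WT 0 of the 3 passed, and the Lmnb2 means were 23.4 and 23.3 CPM.

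Villus enterocyte genes, the company in which Krt20 is usually found, mostly had few reads in cancer cells. Of 10 tested, 9 passed as lower in pure cancer against pure WT and 9 in mixed cancer against mixed WT, beside 4.84% and 4.41% of all genes, and 0 passed with mixing in either kind of cell. Since 8 of the 10 reached the filter's level only in WT libraries, the filter favored a lower call, and the counts are a description. Alpi, the intestinal alkaline phosphatase, had 3 reads in pure cancer against 1161 in pure WT and 10 in mixed cancer against 466 in mixed WT. Apoa1, an apolipoprotein of lipid export, had 0 reads in pure cancer against 500 in pure WT (at least 30.4-fold lower) and 1 in mixed cancer against 50 in mixed WT. In mixed against pure WT, where Krt20 was at its highest, the median log2 difference of the 10 was -0.65, against -0.10 over all genes.

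Genes of stratified epithelium, the tissue of Krt4, were tested for 5 of 20 listed, with 11 having a row. In pure cancer against pure WT 3 of them were higher, beside 5.11% of all genes, with Tgm1 counted as a description only. They were Ly6d, a surface protein (log2 difference 4.68, SE 0.667, edgeR adjusted p = 3.79e-05), Tgm1, the keratinocyte transglutaminase (16 reads against 0, at least 29.2-fold, no test read), and Cstb, a cysteine protease inhibitor (1.43, SE 0.396, edgeR adjusted p = 0.0209). In mixed cancer against mixed WT Tgm1 had 243 reads against 0 (at least 7.91-fold higher), again with no test read. No other gene of the list was called there, beside 2.01% of all genes higher. The median log2 difference of the 5 tested genes was -0.74 there, against 0.12 over all genes. In pure cancer against pure WT it was 1.43 (-0.05 over all genes), and in mixed against pure WT 1.65 (-0.10 over all genes). Tgm1 reached the filter's level only in cancer libraries, so the filter favored a higher call, and its values are a description. Ly6d was also higher in mixed than in pure WT (log2 difference 5.82, SE 0.680, edgeR adjusted p = 6.31e-05), the 1 gene of this list called there, beside 0.646% of all genes.

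The genes with the library profile most like each keratin were found by the root-mean-square difference of centered log2 CPM over the 8 libraries, among 2745 genes with a mean of at least 50 reads. For Krt8 they were Gsta4 (0.222), Lgals9 (0.298) and Cldn7 (0.331), and for Krt7 1190003J15Rik (0.314), Prkcdbp (0.346) and S100a6 (0.358). For Krt4 they were Ifitm1 (0.419), Faim2 (0.581) and Msn (0.590). For Krt18 they were Tax1bp3 (0.193), Ctsh (0.222) and S100a11 (0.230), for Krt19 Fdft1 (0.233), Por (0.235) and H2-D1 (0.255), and for Krt23 Rab11a (0.280), Arpc2 (0.287) and Atp6v1g1 (0.294). Krt20 had no close profile, its nearest being Gpd1 (0.987), Cdkn1a (0.991) and Ncoa4 (1.08). Krt18 stood 1756th in nearness to Krt8, its filament partner, at a difference of 1.17.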

How the data were processed

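RNA of sorted WT and cancer organoid cells (2 libraries in each of 4 groups) was sequenced from the 3′ end by the authors with CEL-Seq primers. The submitters' processing notes name build mm10, BWA, featureCounts and DESeq2 1.22.2. The deposited read counts per gene are raw. The authors also deposited barcode counts, the number of distinct 4-base molecular identifiers per gene, and estimated transcript counts (expected counts) corrected for shared barcodes, which were rounded here. A deposited table of the authors' own comparison of mixed with pure WT cells holds fold changes and p-values and was not used. Library columns were matched to samples by the number in the sample description.

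Read counts were analyzed in R 4.3.3 with edgeR 4.0.16. The 2 rows that are not mouse genes (1 read) were left out, genes were kept by filterByExpr with a minimum count of 10, libraries were scaled by TMM, and 1 quasi-likelihood model over 8 libraries with a term per group gave each comparison. P-values were Benjamini-Hochberg adjusted over 5264 genes, with 0.05 as threshold, and SE was derived from the fold change and the F statistic. CPM use TMM-scaled library sizes. Counting floors are 3 reads, and 95% intervals cover counting error only. The fit was tested on simulated data. Depth ran from 73109 to 4733121 reads per library, so A02 is the least precise.

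The members and gene lists were chosen with earlier results of these data known. Named besides the 7 members were other keratins passing the filter (none did), up to 4 genes per list and comparison with adjusted p under 0.05 and the smallest p, and the 3 genes nearest in profile to each member. The 4 genes that gauge cancer RNA in mixed WT had 0 reads in both pure WT libraries and at least 50 CPM in both pure cancer libraries. Alternatives were barcode and transcript counts, other scaling and filters, a subset of libraries, DESeq2 1.42.0, and each library left out in turn. Some items are not reported here.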

Additional observations from a re-analysis of the deposited data

How the results depend on the processing

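The number of the 7 keratins passing the threshold in mixed against pure WT was 0, and it became 1 with a minimum count of 50 (Krt7, edgeR adjusted p = 0.0434), in a fit of only the 4 libraries compared (Krt20) and with DESeq2 (Krt7), and was 0 to 1 with each library left out. Krt20 was also the keratin behind the 1 with a library left out (A07). No test is read for Krt20, or for Krt4 between cancer and WT cells, so their calls enter these counts as a description only. In pure cancer against pure WT the number was 2, Krt4 included, and became 1 (Krt4) with barcode counts. With barcode counts Krt7 differed by 2.20 (edgeR adjusted p = 0.236) and Krt8 by 1.31 against -0.65 with reads. In mixed cancer against mixed WT it was 4, Krt4 and Krt20 included, became 1 with barcode counts and was 2 to 4 with each library left out. There Krt7 differed by 0.22 with barcode counts and 1.09 with transcript counts (edgeR adjusted p = 0.946 and 0.295), and Krt8 by -1.66 with barcode counts (edgeR adjusted p = 0.524). Barcode counts level off at 256 for these genes, and the part of this in the lost calls was not tested. Of 48 alternative values of the called differences of Krt7 and Krt8, 42 kept direction and call and 6 kept direction only. Median-of-ratios scaling moved the median of all genes in mixed against pure WT from -0.10 to 0.00. The ratios from transcript counts were added after seeing the data. No paired analysis was possible because the labels give no replicate numbers shared between groups, and the order of wells was not taken as a pairing. Krt20 had 0 reads in A07 and A08, where its level is known only to its upper limit.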
